A study of Mus musculus with 16 samples.

Results

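B16-F10 is a pigmented mouse melanoma cell line, and the 4 libraries labelled MGO.53 give its messenger RNA under an isotype control antibody, an antibody used as the reference for the effects of antibody as such. They were chosen by that label alone and are 4 of the 15 libraries in the deposited table, which hold 4 antibodies in all (the labels describe 16 samples). In each, wild type B16-F10 cells grown in serum-containing medium were kept for 24 hours with the antibody MGO.53 before polyadenylated RNA was made into strand-specific libraries, and all 4 carry the label batch 1. The wider study asked which genes move in these cells once antibodies are added that, by its title, block HSP70 outside the cell. No library of cells without antibody was analysed here, so every level below is a level with MGO.53 added. All 4 come from 1 cell line. The labels call them biological replicates and say no more of how they were grown, so the spread between them may be technical. Nothing was compared between groups, and no test was run, since the description concerns 1 group.

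The 4 libraries held 33529927, 19446531, 25802281 and 26023844 counts in replicates 1 to 4. Levels are in CPM, counts per 1000000 counts of the library, so 1 count was worth 0.0298 to 0.0514 CPM. For a gene at 0 counts, 3 counts are the limit that a zero allows, which is 0.0895 to 0.154 CPM depending on the library, for counting error only. Where genes are compared with each other, levels are also given in TPM, the CPM divided by the length of the gene's longest transcript and rescaled to a sum of 1000000. Of 49164 genes with values, 11322 reached 1 CPM in all 4 libraries and 27104 had 0 counts in all 4. Of the 21876 protein-coding genes among them, 49.1% reached 1 CPM in all 4 and 30.9% had 0 counts in all 4. Counts of list members below are to be read against these shares. Values after ± are the SD over the 4 libraries (n = 4) throughout.

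Melanocytes make melanin inside melanosomes, organelles related to lysosomes. MITF, a basic helix-loop-helix leucine zipper factor, drives the pigment genes together with SOX10, a neural crest factor that also acts on the Mitf gene. Tyrosinase oxidises tyrosine, and the related proteins encoded by Dct and Tyrp1 act on later intermediates of black melanin.

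The 4 lineage markers were all high, and each lay close together in the 4 libraries. Pmel, which encodes the fibril-forming protein of the melanosome, had 6527, 6340.2, 6413 and 6286 CPM in replicates 1 to 4. Mlana, a small melanosome membrane protein and a common melanoma antigen, had 1530.0, 1598, 1556 and 1538 CPM. Sox10 had 625, 627, 604 and 597 CPM and Mitf had 632, 654, 657 and 668 CPM. Against all genes with a length, Pmel stood at rank 8 and Mlana at rank 11 by TPM (7689.7 ± 175 TPM and 4399 ± 61.8 TPM), while the regulators Sox10 and Mitf were at rank 237 and 447 (566 ± 14.1 TPM and 343 ± 6.99 TPM). The defining markers of the labelled cell type were thus present.

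The 3 pigment enzymes summed to 20817, 20840.0, 21155 and 20544 CPM in replicates 1 to 4, with a coefficient of variation (CV, the SD over the mean) of 1.20%. Tyrp1 was the most abundant gene of the cells by CPM, with 12071, 12230.0, 12381 and 12089 CPM. Dct had 8036, 7893, 8039 and 7743 CPM, and tyrosinase itself, Tyr, was far lower at 709, 717, 735 and 713 CPM. The same order held per length, with 11486 ± 154 TPM for Tyrp1, 5873 ± 137 TPM for Dct and 305 ± 5.58 TPM for Tyr, and the ranges of the 3 genes over the libraries did not overlap. The promoters of these 3 genes are shown because MITF binds DNA at the letters CATGTG, and each holds them. The stretches are the 250 bases before the transcription start, read 5′ to 3′ on the gene's own strand, from RefSeq (GRCm38.p6), with CATGTG or its reverse complement CACATG in capitals.
Tyrp1 (chr4:80833963-80834212, + strand): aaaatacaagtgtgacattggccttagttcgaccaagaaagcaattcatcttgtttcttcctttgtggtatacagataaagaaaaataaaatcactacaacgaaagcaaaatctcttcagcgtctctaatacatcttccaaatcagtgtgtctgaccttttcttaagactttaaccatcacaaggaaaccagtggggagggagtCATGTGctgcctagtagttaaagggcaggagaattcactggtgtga
Dct (chr14:118052247-118052496, - strand): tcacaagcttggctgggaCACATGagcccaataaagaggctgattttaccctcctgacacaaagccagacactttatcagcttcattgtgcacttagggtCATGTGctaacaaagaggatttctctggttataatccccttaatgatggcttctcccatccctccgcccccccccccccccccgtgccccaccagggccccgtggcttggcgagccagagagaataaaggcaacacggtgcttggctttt
Tyr (chr7:87493513-87493762, - strand): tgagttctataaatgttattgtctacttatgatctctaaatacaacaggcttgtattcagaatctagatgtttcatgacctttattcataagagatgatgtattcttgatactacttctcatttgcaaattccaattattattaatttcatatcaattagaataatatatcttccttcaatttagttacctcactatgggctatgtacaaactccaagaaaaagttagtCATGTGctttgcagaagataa
The letters began at position -46 in Tyrp1, at -232 and -150 in Dct and at -21 in Tyr, counted from the start site. Searched in the whole window of 250 bases before to 50 after the start, on both strands, they were present at 13.0% of 16740 protein-coding genes with a promoter in the table. Of 15 melanosome genes with a promoter there, 4 held them, and of 11 melanocyte regulators 1 did. A match is only a match of letters, and binding was not measured.

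Of 20 melanosome genes, all 20 were above 1 CPM in each library, and 15 had a mean of 100 CPM or more. Gpnmb, a relative of Pmel, came first by CPM with 8783, 8769.9, 8720.0 and 8488 CPM (6017 ± 112 TPM). The transporter genes Slc45a2 and Slc24a5, which set melanosome chemistry and coat colour, had 1617 ± 59.3 CPM and 1082 ± 11.1 CPM, and the anion transporter Oca2 had 106 ± 6.15 CPM. The transport machinery that carries melanosomes along actin was expressed, with the motor Myo5a at 812 ± 30.7 CPM, its adaptor Mlph at 1008 ± 30.4 CPM and Rab27a at 345 ± 6.91 CPM. The melanosome sorting GTPases Rab38 and Rab32 had 425 ± 5.25 CPM and 87.1 ± 3.16 CPM, 690.3 ± 10.5 TPM against 104 ± 3.08 TPM. The lowest member was the cation channel gene Tpcn2 with 8.94 ± 1.07 CPM.

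Among 15 melanocyte regulators, 12 were at 1 CPM or more in every library. The neural crest factors Pax3 and Tfap2a had 196 ± 7.99 CPM and 155 ± 8.22 CPM, Tbx2 had 212 ± 8.72 CPM and Zeb2 had 142 ± 5.57 CPM. Mc1r, the melanocortin receptor that favours black pigment, was well expressed at 346, 319, 354 and 323 CPM. Other receptors of the lineage were low. Kit, the receptor of stem cell factor, had 6.56, 6.58, 7.83 and 6.84 CPM, and Ednrb, the endothelin receptor needed by melanoblasts, had 0 counts in all 4 libraries. Irf4, a melanocyte factor in pigmentation, had 0.446 ± 0.226 CPM, and Lef1 had 1.52 ± 0.553 CPM. The MITF relatives Tfe3 and Tfeb were present at 54.3 ± 1.65 CPM and 18.5 ± 0.998 CPM, 22.0 ± 0.832 TPM and 20.3 ± 1.14 TPM against 343 ± 6.99 TPM for Mitf.

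**Figure D1:**
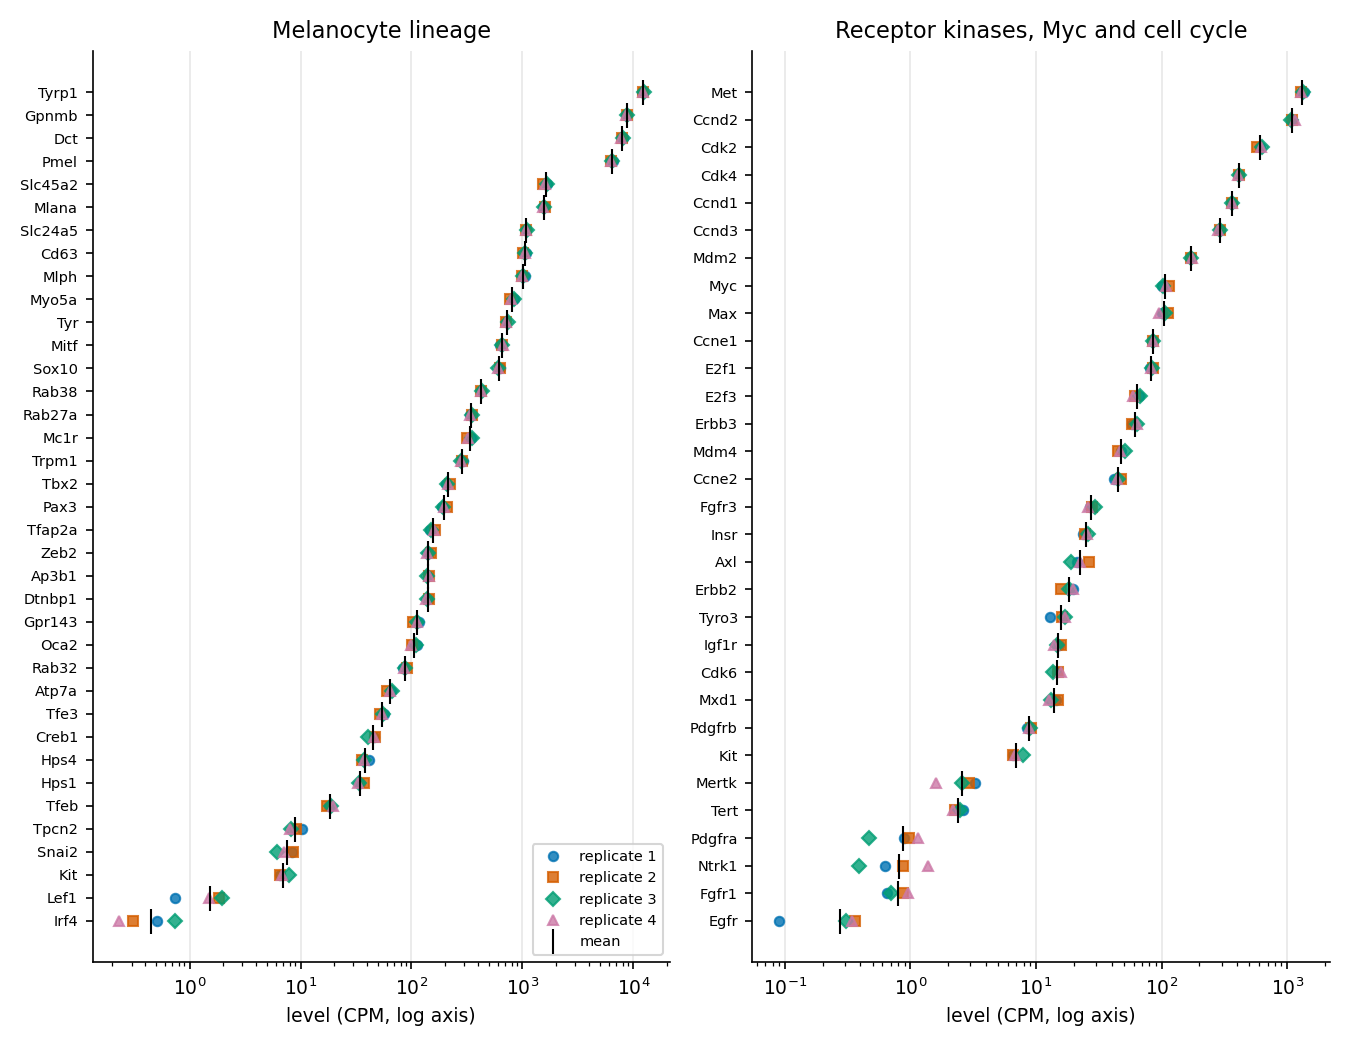
Levels in CPM on a log axis of the melanocyte lineage lists (left) and of receptor kinases, Myc and cell cycle genes (right) in each of the 4 MGO.53 libraries, with a bar at the mean and with genes shown that had counts in all 4. Tyrp1 leads on the left at 12193 CPM and Met on the right at 1317 CPM, and symbols of the 4 libraries lie on top of each other for all but the lowest genes.

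Melanoma cells can also take a dedifferentiated state, marked by AXL, NGFR or SOX9 and low MITF. Of 16 genes linked with that state or with mesenchymal change, 7 had a mean of 1 CPM or more and 3 had 0 counts in all libraries. The same 7 reached 1 CPM in every library, where 49.1% of all protein-coding genes did. The intermediate filament gene Vim was abundant at 1825 ± 28.9 CPM, and the N-cadherin gene Cdh2 had 89.8 ± 4.36 CPM where the E-cadherin gene Cdh1 had 1.41 ± 0.112 CPM (47.5 ± 2.00 TPM against 0.818 ± 0.07 TPM). The matrix protein gene Fn1 had 62.4 ± 3.02 CPM. Axl had 21.2, 26.4, 19.1 and 22.6 CPM and Sox9 had 11.2 ± 0.27 CPM. Ngfr was at 0.345 ± 0.136 CPM and Egfr at 0.276 ± 0.126 CPM, while Wnt5a, Twist1 and Twist2 were at 0. Genes of Schwann and neural crest cells, relatives of melanocytes, were partly on, with 9 of 12 at a mean of 1 CPM or more, among them the filament gene Nes (88.6 ± 4.77 CPM), the S100 protein gene S100b (82.2 ± 1.77 CPM), Cdh19 (76.9 ± 3.13 CPM) and Sox6 (81.3 ± 3.26 CPM), and with Foxd3 at 0.

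The 20 most abundant genes by CPM took 9.40 ± 0.191% of all counts. By CPM the first 10 included Tyrp1, Gpnmb, Dct, the mitochondrially encoded mt-Cytb (6540.0 ± 597 CPM) and mt-Co1 (6499 ± 515 CPM), the elongation factor Eef1a1 (6394 ± 96.0 CPM), Pmel, the HSP90 gene Hsp90ab1 (3944 ± 27.4 CPM) and the ferritin light chain Ftl1 (3925 ± 77.2 CPM), so 4 of the 10 were pigment cell genes. The next 10 were Eef2, mt-Nd1, the pyruvate kinase Pkm (3365 ± 74.4 CPM), Actb (2846 ± 122 CPM), Gapdh (2652 ± 60.5 CPM), the enolase Eno1, mt-Nd5, the ferritin heavy chain Fth1, the poly(A) binding protein gene Pabpc1 and the aldolase Aldoa, the last at 2204 ± 38.5 CPM. The top 10 and the top 100 of each library held 6.63 ± 0.13% and 19.8 ± 0.203% of its counts.

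**Figure D2:**
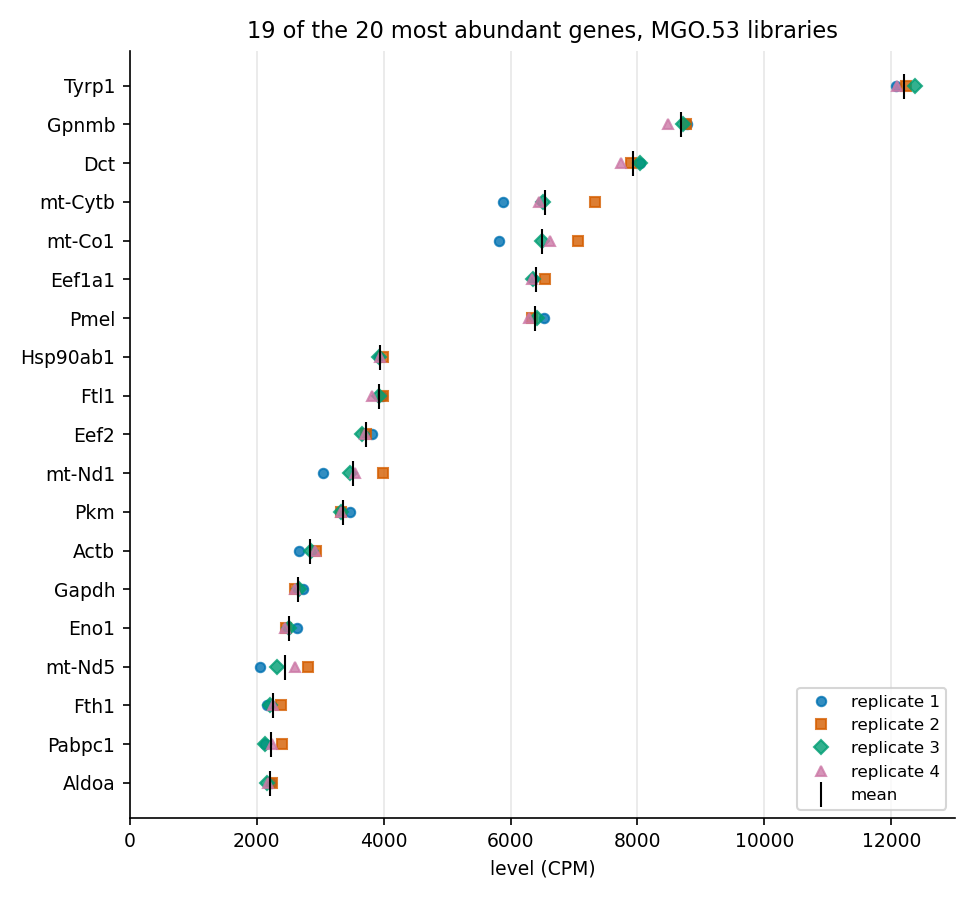
Levels in CPM (linear axis from 0) of 19 of the 20 genes with the highest mean over the 4 MGO.53 libraries, one symbol per library and a bar at the mean. The means run from 12193 CPM for Tyrp1 to 2204 CPM for Aldoa, and the libraries separate visibly in the mitochondrial genes, where replicate 2 is highest and replicate 1 lowest.

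Per length, short transcripts moved up. By TPM the order was mt-Cytb (14642 ± 1233 TPM), Tyrp1 (11486 ± 154 TPM), mt-Co1 (10774 ± 780.0 TPM), Ftl1 (10391 ± 216 TPM), mt-Nd1 (9404 ± 963 TPM), Eef1a1 (9132 ± 90.3 TPM), the ribosomal stalk protein gene Rplp1 (9119.6 ± 338 TPM), Pmel, Gpnmb and Dct, followed by Mlana. Several neighbours did not differ beyond their spread, among them mt-Nd1, Eef1a1 and Rplp1, mt-Co1 with Tyrp1 and Ftl1, and mt-Nd2 with Mlana. Places 12 to 20 went to mt-Nd2, Hsp90ab1, the galectin gene Lgals1, Rpl8, Actb, Aldoa, Pkm, Rps15 and Rpl32, from 4272 ± 552 TPM for mt-Nd2 to 3486 ± 40.9 TPM for Rpl32. The order depended on the length used. With the median transcript length 13 of the 20 genes stayed among the 20, and with the longest coding length 14 did. Pmel was first by median length and Tyrp1 first by coding length. Of 21 pairs of genes set against each other per length here, 17 kept their order with all 3 lengths, and the other 4 were Tyrp1 with Pmel, Hras with Nras, Ccnd1 with Ccnd3 and B2m with H2-D1. The ratio of 16 of the 21 pairs moved by over 1.5 times with at least 1 of the other lengths, so the sizes of differences in TPM are rough.

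Protein synthesis genes were abundant as a group. The 84 cytosolic ribosomal protein genes summed to 46327 ± 465 CPM, led by Rpl4 (1987 ± 35.1 CPM), Rplp1 (1776 ± 77.0 CPM) and Rplp0 (1731 ± 50.4 CPM). Of the 84, 79 had 1 CPM or more in every library. Rpl24 (0.144 ± 0.0585 CPM) and Rps10 (5.32 ± 0.367 CPM) were very low for core ribosome parts. Of 50-base stretches of their longest transcript, 81.7% and 51.8% also occur in annotated transcripts of other genes, and the part of that sharing in their low counts was not tested. The 18 translation factors summed to 22968 ± 166 CPM, with Eef2 at 3724 ± 66.8 CPM and Pabpc1 at 2226 ± 123 CPM, while the muscle and neuron form Eef1a2 had 0.668 ± 0.38 CPM. The ribosomal paralogs Rpl10l and Rpl39l were at 0. Of 22 cytoskeleton and housekeeping genes, all above 1 CPM, Actb, Gapdh and the tubulin gene Tubb5 (2173 ± 47.0 CPM) were highest.

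The 21 glycolysis genes, all above 1 CPM, summed to 16659.8 ± 327 CPM. Pkm, Gapdh, Eno1, Aldoa and the lactate dehydrogenase Ldha (2119 ± 53.3 CPM) each passed 2000 CPM. Isoforms were unequal per length, with Ldha at 2992 ± 97.4 TPM against 215 ± 4.69 TPM for Ldhb, and Eno1 at 3175 ± 133 TPM against 21.5 ± 1.41 TPM for the neuronal Eno2. The glucose transporter Slc2a1 had 69.7 ± 2.44 CPM. The lactate exporters Slc16a1 and Slc16a3 had 216 ± 8.26 CPM and 24.1 ± 2.60 CPM.

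Of 13 protein genes of the mitochondrial genome, 7 had counts above 1 CPM and 6 were at or near 0. Counts on mt-Cytb, mt-Co1, mt-Nd1, mt-Nd2, mt-Nd4, mt-Nd5 and mt-Nd6 made up 1.95 to 2.47% of the libraries. The subunit genes mt-Co3, mt-Atp6, mt-Atp8, mt-Nd3 and mt-Nd4l were listed at 0, and mt-Co2 at 3 counts in all, although every respiring cell uses them. Of the 50-base stretches of mt-Co2, mt-Co3, mt-Atp6, mt-Nd3 and mt-Nd4l, 98% or more also occur in transcripts of other annotated genes. For mt-Atp8, also at 0, the share was 0%, although 21.1% of its exon bases overlap another gene. Among the abundant genes the share of stretches was 62.4% for mt-Nd4, 51.3% for mt-Co1 and 0% for mt-Cytb. The part of shared sequence in these zeros was not tested. A 0 in this table is therefore not by itself a silent gene.

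Most receptor tyrosine kinases were low and Met stood far above the rest. Met, the receptor of hepatocyte growth factor, had 1349, 1282, 1341 and 1297 CPM (496 ± 15.8 TPM), and its ligand gene Hgf had 0.0449 ± 0.0529 CPM. The next of 20 such genes were the neuregulin receptor Erbb3 (60.9 ± 3.19 CPM, 26.0 ± 1.42 TPM), Fgfr3 (27.7 ± 1.41 CPM), the insulin receptor Insr (24.9 ± 0.966 CPM) and Axl. Of the 20, 11 had a mean of 1 CPM or more. The same 11 reached 1 CPM in every library, where 49.1% of all protein-coding genes did. Egfr, Pdgfra (0.872 ± 0.292 CPM) and Fgfr1 (0.797 ± 0.144 CPM) were below 1 CPM in the mean, and Alk had 0 counts.

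The RAS and ERK cascade was on in all of its 16 listed genes, from Braf at the low end to the GTPase Rac1 (435 ± 3.83 CPM). Among the RAS genes Nras had 122 ± 5.98 CPM and Hras 113 ± 6.51 CPM, or 70.0 ± 3.64 TPM and 103 ± 6.23 TPM. Among the RAF kinases Araf had 82.3 ± 3.21 CPM and Braf, the kinase most often mutated in human melanoma, 56.0, 51.9, 53.8 and 57.0 CPM. Per length the levels were 73.9 ± 3.13 TPM for Araf and 14.4 ± 0.663 TPM for Braf. Hras and Nras changed places with the other lengths. The phosphatase gene Ptpn11 had 261 ± 8.35 CPM. These are levels only, and sequence changes were not read.

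In the PI3K list Akt1 stood apart from the other 11 genes. Akt1, a kinase of the growth and survival pathway, had 1198, 1209.6, 1169 and 1211 CPM, where Akt2 had 84.6 ± 0.567 CPM. Per length this was 1140.3 ± 15.4 TPM against 47.7 ± 0.418 TPM. The catalytic subunit Pik3ca had 83.9 ± 5.98 CPM, the regulatory subunits Pik3r1 and Pik3r2 36.3 ± 1.98 CPM and 82.3 ± 3.69 CPM, and Mtor 62.5 ± 3.29 CPM. Of the other genes the mTOR partners Rictor (104 ± 2.54 CPM) and Rheb (93.4 ± 2.06 CPM) were highest.

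Myc, the growth factor-driven transcription factor, had 99.9, 115, 102 and 109 CPM, and its relatives Mycn and Mycl had 0 counts and 0.236 ± 0.181 CPM. Its partner Max had 104 ± 7.15 CPM. Of the D cyclins, which start the cell cycle with CDK4 and CDK6, Ccnd2 was highest at 1097, 1086, 1072 and 1144 CPM, followed by Ccnd1 (363 ± 1.55 CPM) and Ccnd3 (289 ± 5.42 CPM), or 445 ± 12.6 TPM, 249 ± 2.55 TPM and 192 ± 4.27 TPM per length, where the last 2 changed places with the median length. Cdk4 had 413 ± 4.51 CPM and Cdk6 14.8 ± 0.882 CPM, or 515 ± 5.59 TPM against 3.30 ± 0.185 TPM, a ratio of 156 that was 44.1 with the median and 29.9 with the coding length. Cdk2, which neighbours Pmel on the chromosome, had 609.8 ± 24.9 CPM. Tert, the telomerase subunit, had 2.62, 2.26, 2.48 and 2.19 CPM.

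Of 20 other oncogenes 18 had a mean of 1 CPM or more. Ctnnb1, encoding beta-catenin, the effector of WNT signalling, was the highest at 1782, 1704, 1774 and 1716 CPM (1234 ± 36.9 TPM). Ets1 had 412 ± 9.83 CPM, the survival gene Mcl1 277 ± 4.40 CPM and the Hippo effector Yap1 205 ± 5.00 CPM. Bcl2l1 and Bcl2 had 114 ± 4.52 CPM and 47.5 ± 1.78 CPM. The blood cell factors Myb (0.839 ± 0.229 CPM) and Lmo2 (0.665 ± 0.175 CPM) were below 1 CPM.

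Of 26 tumour suppressor genes, 23 were above 1 CPM in every library, against 49.1% of all protein-coding genes. Both Cdkn2a and Cdkn2b had 0 counts in all 4. Cdkn2a encodes the CDK4 inhibitor p16INK4a and the p53 activator ARF and is often lost in melanoma, and Cdkn2b encodes p15INK4b. None of the 50-base stretches sampled along the longest transcript of either gene occurs in annotated transcripts of other genes, read in the same direction. In the gene order of GENCODE M21 on chromosome 4, the protein-coding neighbour on one side of Cdkn2a is Mtap, an enzyme of methionine salvage, with 384 ± 8.89 CPM. On the other side follow Cdkn2b, then Dmrta1, Zfp352, Elavl2, Izumo3, Gm12666 and Tusc1, which held 0 to 10 counts summed over the 4 libraries, and then Caap1 with 17.9 ± 1.62 CPM. Beyond Mtap only the next 15 protein-coding genes were looked at, which include Ifne, Ifna1 and other interferon genes. All had 0 counts except Ifna4 (0.611 ± 0.357 CPM), and sequence shared among these 15 genes was not checked. DNA was not measured, so silence and loss of the genes at 0 cannot be told apart.

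The other suppressors were expressed. Trp53 had 161, 166, 166 and 158 CPM, and 16 of 18 p53 target genes had a mean of 1 CPM or more, led by Ccng1 (589 ± 7.51 CPM), the CDK inhibitor Cdkn1a (452 ± 10.4 CPM), Phlda3 (229 ± 7.38 CPM) and the p53 ligase Mdm2 (172 ± 1.95 CPM), with the death receptor gene Fas at 0.763 ± 0.345 CPM and Pmaip1 at 0.0386 ± 0.0771 CPM. Rb1 had 16.3 ± 0.821 CPM, the lowest of the 23, Nf1 84.6 ± 5.59 CPM, Nf2 233 ± 1.88 CPM and Brca1 226 ± 10.8 CPM. Of the CDK inhibitors, Cdkn1b and Cdkn2c had 59.6 ± 1.86 CPM and 57.2 ± 2.42 CPM, and the imprinted Cdkn1c had 0.112 ± 0.0791 CPM.

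All 22 proliferation genes exceeded 90 CPM in the mean, with the ribonucleotide reductase Rrm2 (644 ± 15.6 CPM), the helicase subunit Mcm2 (636 ± 5.56 CPM) and the topoisomerase Top2a (615 ± 7.14 CPM) at the top and Mki67 at 355 ± 18.3 CPM. Genes that keep others silent were expressed as well. The maintenance DNA methyltransferase Dnmt1 had 389 ± 12.1 CPM, its partner Uhrf1 362 ± 3.39 CPM, the Polycomb methyltransferase Ezh2 233 ± 5.45 CPM and the silencer Trim28 525 ± 16.9 CPM. The de novo enzymes Dnmt3a and Dnmt3b were lower at 54.0 ± 2.16 CPM and 9.27 ± 1.40 CPM (14.3 ± 0.637 TPM and 5.49 ± 0.789 TPM against 169.7 ± 5.09 TPM for Dnmt1). Dnmt1 over Dnmt3a was 11.9 in TPM, but 1.13 with the median and 4.04 with the coding length, and Dnmt3a over Dnmt3b was 2.60, 29.1 and 5.52.

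Genes at 0 counts were counted by gene family and by cell type list. Of 21876 protein-coding genes matched in GENCODE M21, 6758 or 30.9% had 0 counts in all 4 libraries. Of 1410 olfactory receptor genes 1347 were at 0 and none reached 1 CPM in all 4, and of 588 vomeronasal receptor genes 575 were at 0. All 58 keratin-associated protein genes, 22 major urinary protein genes and 45 alpha defensin genes were at 0. Sequence shared within these families was not checked. By contrast, of 423 zinc finger genes of the Zfp series 43 were at 0 and 316 were at 1 CPM or more in every library.

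Markers of most other cell types were at or near 0. Of 18 leukocyte genes 10 were at 0, among them Cd3d, Cd3g, Cd4 and Cd8a of T cells, Ms4a1 of B cells, Ncr1 of natural killer cells and the myeloid Itgam, Adgre1 and Tyrobp, where Itgam shares 72.4% of its 50-base stretches with other genes. The pan-leukocyte Ptprc had 0.0245 ± 0.0296 CPM, and only Cd68, a lysosomal protein gene (16 ± 2.10 CPM), and Lyz2 (2.45 ± 0.368 CPM) passed 1 CPM in the mean, with Laptm5 next at 0.346 ± 0.033 CPM. Of 10 endothelial genes Vwf alone passed it, at 3.39 ± 0.202 CPM, with Cdh5, Cldn5, Emcn and Erg at 0, Pecam1 at 0.163 ± 0.094 CPM and Flt1 at 0.0516 ± 0.0731 CPM. The keratinocyte, muscle, liver, erythroid and adipocyte lists, 45 genes together, held no gene with a mean of 1 CPM or more. Keratinocyte genes peaked with Krt10, Krt14 and Krt15, at 0.0514 ± 0.103 CPM, 0.0332 ± 0.0485 CPM and 0.0192 ± 0.0384 CPM, and Krt1, Lor, Ivl and Dsg3 were at 0. The highest muscle genes were Ckm, Actn2 and Acta1 (0.141 ± 0.0973 CPM, 0.0952 ± 0.0655 CPM and 0.0664 ± 0.0343 CPM), with Myod1, Mb, Myh1, Myh2 and Tnnt3 at 0. Of liver genes Apoa2, Apoa1 and Ttr were highest (0.853 ± 0.14 CPM, 0.0888 ± 0.115 CPM and 0.0192 ± 0.0384 CPM), and Alb, Apob, Fgb, Serpina1a and Tat were at 0, of which Serpina1a shares 67.8% of its stretches. The globin genes Hba-a1, Hba-a2, Hbb-bs and Hbb-bt and the heme enzyme gene Alas2 were at 0. The 4 globin genes share 58.0 to 87.1% of their 50-base stretches with other genes. Epor and Klf1 had 0.41 ± 0.0649 CPM and 0.217 ± 0.159 CPM. Of fat cell genes only Pparg had counts (0.416 ± 0.38 CPM), and Adipoq, Cidec, Plin1, Ucp1, Lep and Fabp4 were at 0. In the neuron list Map2 was the exception (7.02 ± 1.05 CPM), followed by Slc17a7 (0.345 ± 0.236 CPM) and Syt1 (0.0373 ± 0.0746 CPM), with Snap25, Nefl and Gad1 at 0. In the fibroblast list Col5a1 (11.7 ± 1.66 CPM), Postn (9.44 ± 1.14 CPM), Pdgfrb (8.84 ± 0.262 CPM), Col1a2 (5.76 ± 0.538 CPM) and Col1a1 (3.04 ± 0.719 CPM) were above 1 CPM in the mean, the defining Dcn and Lum were at 0.0976 ± 0.0819 CPM and 0.0171 ± 0.0201 CPM, and Thy1 was at 0.

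The epithelial list was mixed. Krt8, a keratin of simple epithelia, had 5.55, 7.04, 4.77 and 7.03 CPM, its partner Krt18 had 3.58, 7.46, 4.84 and 3.96 CPM and the mesothelial surface gene Msln had 4.26, 8.18, 2.87 and 8.11 CPM. Replicate 2 was highest for all 3, and replicate 4 was close behind it for Krt8 and Msln but not for Krt18. Krt19 had 1.83 ± 0.553 CPM, and Epcam, Cldn4 and Cldn7, which define epithelia, had 0 counts in all 4. The 19 genes summed to 17.6, 27.9, 16.3 and 24.3 CPM in replicates 1 to 4.

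**Figure D3:**
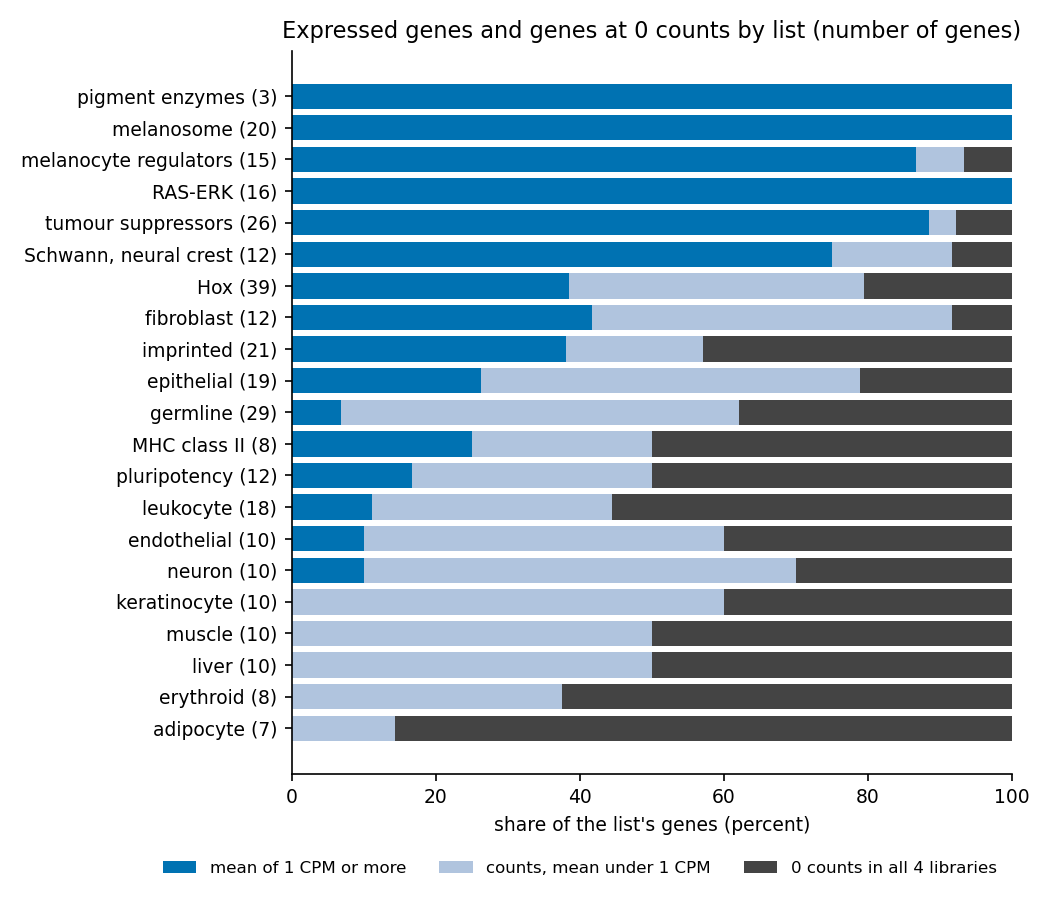
Share of the genes of each list (number of genes in brackets) with a mean of 1 CPM or more over the 4 MGO.53 libraries, with counts but a mean under 1 CPM, and with 0 counts in all 4. Pigment enzymes, melanosome and RAS-ERK genes are all expressed. At 0 are 6 of 7 adipocyte genes and 10 of 18 leukocyte genes, against 30.9% of all protein-coding genes.

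Developmental genes were on in part. Of 39 Hox genes, which set position along the body, 15 had a mean of 1 CPM or more and 8 were at 0. In every library 13 reached 1 CPM, where 49.1% of all protein-coding genes did and 30.9% were at 0. Of the A cluster 8 of 11 genes were above 1 CPM, led by Hoxa10 (24.0 ± 3.57 CPM), and of the B cluster Hoxb9 led (17.3 ± 0.88 CPM). In the D cluster the last gene, Hoxd13, had 12.4, 13.9, 13.9 and 14 CPM, while Hoxd1, Hoxd9 and Hoxd10 were at 0 and Hoxd11 and Hoxd12 had 0.0129 ± 0.0257 CPM and 0.00746 ± 0.0149 CPM. No Hoxc gene reached 1 CPM, the highest being Hoxc6 (0.242 ± 0.102 CPM), and Hoxc9, Hoxc11 and Hoxc12 were at 0, as were Hoxa13 and Hoxb1. In the pluripotency list Pou5f1, Nanog, Esrrb, Tdgf1, Dppa3 and Zfp42 were at 0. The RNA-binding gene Lin28b had 5.28, 5.66, 5.15 and 4.80 CPM, Sall4 had 1.92 ± 0.391 CPM and Dppa2 0.0812 ± 0.1 CPM.

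Of 29 germline and cancer-testis genes 11 were at 0, where 30.9% of all protein-coding genes were. Xlr3a (8.11 ± 1.17 CPM) and the testis bromodomain gene Brdt (1.61 ± 0.527 CPM) were above 1 CPM in the mean, with the germ cell helicase gene Ddx4 next (0.837 ± 0.327 CPM). Those at 0 were Magea4, Magea5, Magea10, Mageb4, Prm1, Prm2, Piwil1, Sycp2, Tex11, Ctcfl and Slco6c1, of which Mageb4 shares 53.9% of its 50-base stretches with other genes. Of 39 genes of the Mage family 30 were at 0, and Maged1, a member that is not restricted to the germline, had 406 ± 9.26 CPM. Of 50 Prame-like genes 48 were at 0, and Pramel12 had 20.6, 19.7, 22.5 and 18.4 CPM.

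Of 1546 genes that GENCODE M21 places on chromosome Y 1540 were at 0, where 55.1% of all genes with values were. Only 175 of the 1546 are protein-coding, and 3 of these had counts, Gm47283, Gm21860 (23 counts in all) and Sry (5 counts, all in replicate 2). Apart from the listed genes named next, sequence shared among Y genes was not checked. The ubiquitous Y genes Ddx3y, Eif2s3y, Kdm5d, Uty and Usp9y had 0 counts, where their X copies Ddx3x and Eif2s3x had 741 ± 18.1 CPM and 49.3 ± 1.38 CPM, and Usp9x and Kdm5c had 100.1 ± 5.69 CPM and 83.8 ± 0.749 CPM. Only Gm47283, placed there by that annotation, passed 1 CPM (13.7 ± 1.11 CPM). Xist, the RNA of the inactive X, had 0.441 ± 0.256 CPM, and its antisense gene Tsix was at 0. Imprinted genes were divided, with 9 of 21 at 0 (Igf2, Meg3, Dlk1, Mirg, Grb10, Ndn, Nnat, Snrpn and Zim1, with 75.9% of the stretches of Igf2 shared), H19 at 0.0388 ± 0.0775 CPM, and with Plagl1 at 429.5, 437, 440.3 and 431 CPM, Gnas at 1228 ± 36.1 CPM, Igf2r at 224 ± 10.3 CPM and Peg10 at 62.5 ± 1.01 CPM. Over all lists, 120 of 755 different genes were at 0, and of these 12 have over 50% of their exon bases or 50-base stretches in common with another annotated gene, which leaves 108 at 0 with mostly unshared sequence. The 108 include mt-Atp8, so mostly unshared sequence does not by itself mark a 0 as a silent gene.

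MHC class I genes that present peptides to T cells were expressed, and several interferon-inducible ones were low. H2-K1 and H2-D1, the heavy chains, had 29.0, 33.8, 21.4 and 37.2 CPM and 118, 123, 110.0 and 133 CPM. B2m, the light chain, had 184 ± 19.9 CPM, and the peptide transporters Tap1 and Tap2 had 13.8 ± 3.36 CPM and 6.24 ± 1.87 CPM. Per length, B2m stood at 549 ± 55.2 TPM, H2-D1 at 148 ± 11.1 TPM and H2-K1 at 41.5 ± 9.21 TPM, and with the median length B2m and H2-D1 were level. The immunoproteasome subunits Psmb8 and Psmb9 had 3.48 ± 1.04 CPM and 0.933 ± 0.2 CPM, and the class I regulator Nlrc5 had 2.57 ± 0.884 CPM. The general chaperones of the same list, Calr (1349 ± 10.0 CPM), Canx (1234 ± 20 CPM) and Pdia3 (887 ± 9.23 CPM), were abundant. Of 8 class II genes the regulator Ciita, H2-Aa, H2-Ab1 and H2-Oa were at 0. The chaperones H2-DMb1 (3.30 ± 0.412 CPM), Cd74 (2.68 ± 1.19 CPM) and H2-DMa (0.914 ± 0.514 CPM) were highest. Of 16 genes of checkpoint ligands and related surface proteins, Lgals3 (473 ± 10.4 CPM), Pvr (64.6 ± 2.19 CPM) and Lgals9 (47.7 ± 4.53 CPM) led, Cd274, encoding PD-L1, had 7.99, 7.71, 7.48 and 8.15 CPM, and Pdcd1lg2, Cd86, Vtcn1 and Vsir were at 0.

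Of the HSP70 family, the target the title names, Hspa8 had 2013 ± 50.9 CPM, the endoplasmic reticulum form Hspa5 1512 ± 28.7 CPM and the mitochondrial form Hspa9 631 ± 4.75 CPM. The HSP110 relative Hspa4 had 772 ± 4.98 CPM, and Hspa1l and Hspa12a were at 0. The stress-inducible Hspa1b had 2.97 ± 0.419 CPM and Hspa1a 0.00746 ± 0.0149 CPM. Of their 50-base stretches, 62.1% and 60.3% occur in other genes, and the part of this sharing in their low counts was not tested. For Hspa8 the share was 51.0%. Of 12 reported receptors of extracellular HSP70, Tlr4 (40.9, 37.7, 41.8 and 39.7 CPM) and Lrp1 (29.4 ± 3.38 CPM) led, Tlr2 had 2.11 ± 0.524 CPM, Cd14 and Cd40 had 0.327 ± 0.264 CPM and 0.0469 ± 0.0705 CPM, and Olr1, Stab2, Msr1 and Cd36 were at 0.

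The 4 libraries were close to each other. Across the 11322 genes at 1 CPM or more in all 4, Pearson's r of log2(CPM + 1) between pairs was 0.996 to 0.997, over genes, which are not independent replicates. The squared difference of a pair was on average 3.86 to 6.71 times that of counting noise, so no pair of libraries agreed within counting noise. The biological coefficient of variation, the spread beyond counting error that edgeR estimates over all genes that pass its filter, was 4.99% over 12375 genes with 3 residual degrees of freedom. DESeq2 gave 29.0% over 22060 genes as the median over genes of the spread it fits by level, a different summary that weights each gene equally. The edgeR value fell with level, from 19.7% near 1 CPM and 9.32% near 10 CPM to 3.64% near 100 CPM. The CV of a gene had a median of 16.2% between 1 and 10 CPM and 2.24% at 1000 CPM or more, where counting alone gives 10.7% and 0.516%.

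**Figure D4:**
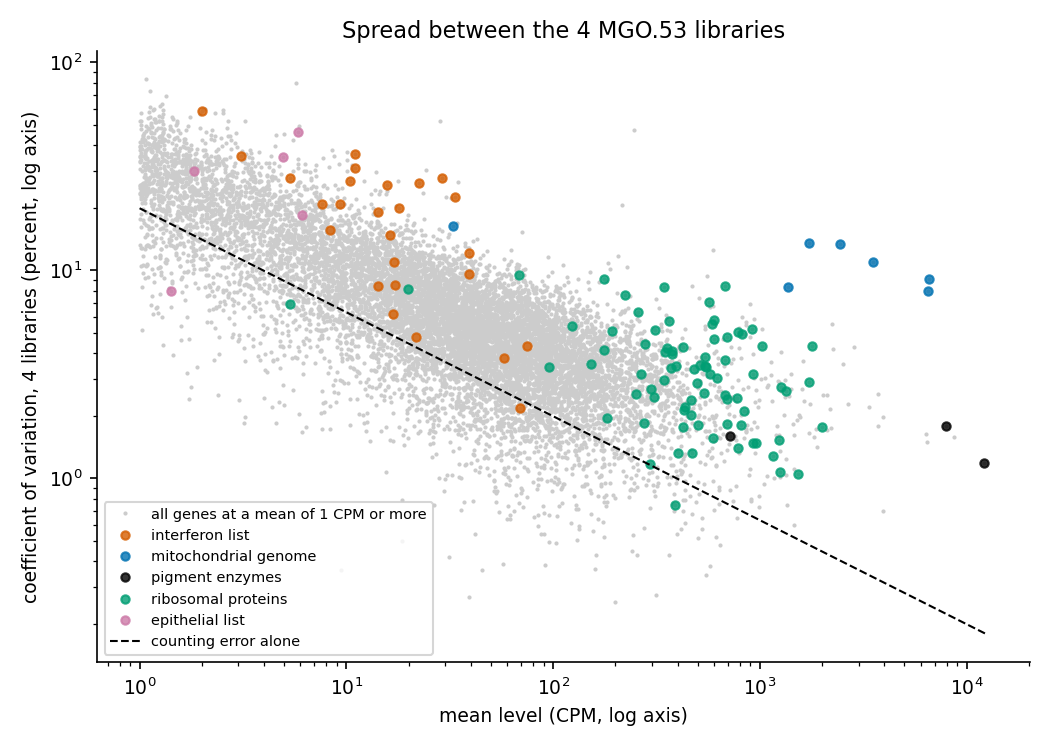
CV over the 4 MGO.53 libraries against mean level for genes at 1 CPM or more (both log axes), with lists in colour and the CV of counting error alone as a dashed line. Pigment enzymes and ribosomal proteins lie at a few percent, while interferon genes (median 19.5%) and the mitochondrial genes (median 11.0%) lie above most genes of their level.

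Several of the genes that varied most are known as interferon-induced, among them Irf7, Usp18, Gbp2b and Apol9a. Among genes at 10 CPM or more, the 10 with the largest CV were Gm15564 (52.2%), the mitochondrial leucyl-tRNA synthetase Lars2 (47.1%), Apol9a, Irf7 (36.4%), Gbp2b, Tagln2, Usp18 (31.0%), Flnc, the osteopontin gene Spp1 and Anxa3 (30.0%). Gm15564 and Lars2 shared a pattern, with replicate 1 highest and replicate 3 lowest, at 49.8, 23.1, 15.6 and 25.2 CPM and at 418, 188, 160.4 and 222 CPM. For both, sequence shared with other genes was not checked. The other 8 were also lowest in replicate 3, but highest in replicate 4 or 2, as with Irf7 at 8.98, 12.8, 6.70 and 15.8 CPM and Spp1 at 19.8, 30.3, 16 and 30.4 CPM. The 5 with the smallest CV were Psmc2 (0.255%), Lxn, Rad21, Msn and Traf6 (0.364%), with 198, 198, 199 and 199 CPM for Psmc2. These values lie below counting error alone. Its median CV is 3.28% from 10 to 100 CPM and 1.54% from 100 to 1000 CPM. With 4 libraries and 8908 genes ranked, they do not single these genes out as steady.

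Part of the interferon list shared this order of the libraries, although all 4 have the same label. The 26 genes of the interferon list, all at a mean of 1 CPM or more, summed to 554, 628, 522 and 634 CPM in replicates 1 to 4. Isg15, a ubiquitin-like modifier, had 20.1, 26.1, 15.2 and 28.2 CPM and Oasl1 had 26.7, 32.0, 19.3 and 38.3 CPM. Replicate 3 was the lowest library for 14 of the 26 and replicate 4 the highest for 14, against 23.5% and 25.2% of all genes at 1 CPM or more. Both held for 9 of the 26, against 8.26% of all these genes. Replicate 1 was the lowest for 8 of the 26 and replicate 2 the highest for 9. Ifnb1, the interferon beta gene, was itself detected at 1.13, 1.95, 1.28 and 3.69 CPM. Ifit2 had 57.7 ± 2.19 CPM. The receptor chains Ifnar1 (74.4 ± 3.22 CPM) and Ifngr2 (68.9 ± 1.5 CPM) had a CV of 4.33% and 2.18%. The epithelial list had its lowest sum in replicate 3 and higher sums in replicates 2 and 4. Of its genes above 1 CPM in the mean, 2 were lowest in replicate 3, 2 in replicate 1 and 1 in replicate 2, 4 were highest in replicate 2 and none in replicate 4. Its 5 genes above 1 CPM in the mean, Krt8, Msln, Krt18, Krt19 and Cdh1, are the part that carries its sum, and Epcam was at 0. The part of such transcripts in the interferon pattern was not tested.

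**Figure D5:**
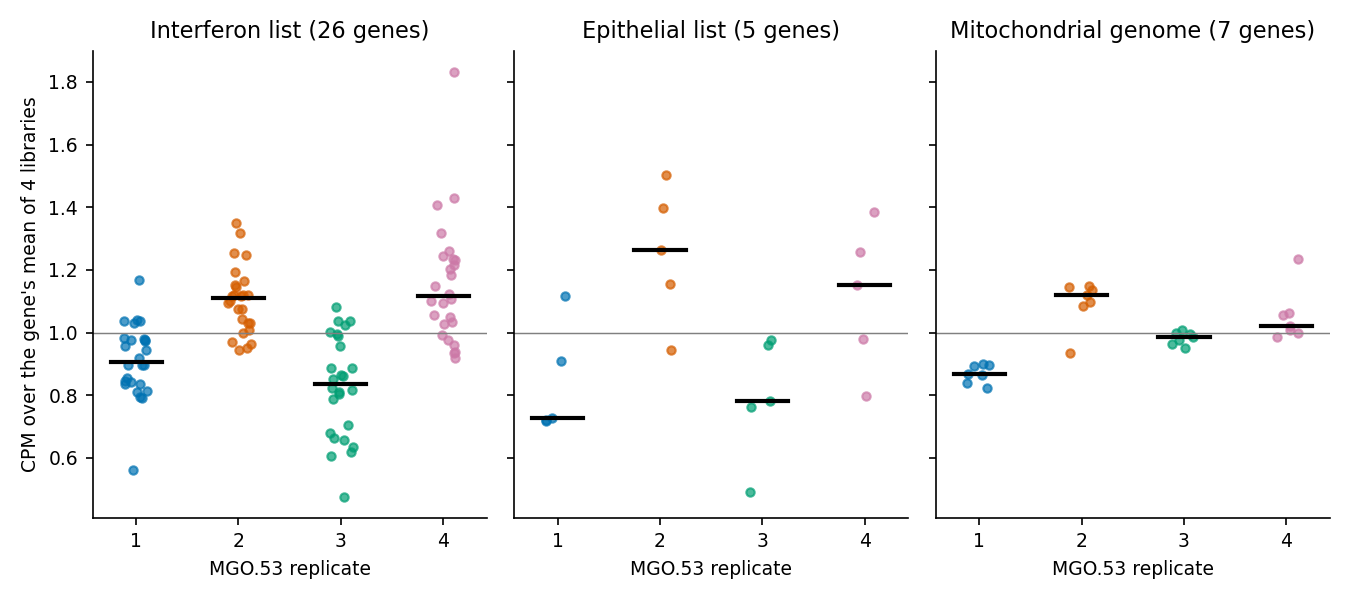
CPM of each gene in each MGO.53 library over that gene's mean of the 4, for genes at a mean of 1 CPM or more in the interferon list (26), the epithelial list (5) and the mitochondrial genome (7), with a bar at the median. Of the interferon genes 14 are lowest in replicate 3 and 14 highest in replicate 4, and mitochondrial genes sit lowest in replicate 1.

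The mitochondrial genes moved in another order. They summed to 19480.3, 24707, 21908 and 22455 CPM, lowest in replicate 1 for all 7 genes above 1 CPM and highest in replicate 2 for 6 of them, and replicate 2 is also the library with the fewest counts. With the mitochondrial genes left out of the totals, the levels of the genes named here rose by a median of 2.26%.

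Level also went with the bases of the promoter. Among protein-coding genes with a promoter in the RefSeq table, the median number of CG dinucleotides in the 300 bases was 3 for 4927 genes at 0 counts, 8.5 for those under 1 CPM, 16 from 1 to 10 CPM, 22 from 10 to 100 CPM and 24 from 100 to 1000 CPM. The pigment enzymes went against this order. Their promoters, printed above, hold 3, 5 and 0 CG dinucleotides in Tyrp1, Dct and Tyr over that window. The letters CATGTG or CACATG were in 17.7% of promoters of genes at 0, 14.4% under 1 CPM and 11.4% from 1 to 10 CPM. The share was 9.56% from 10 to 100 CPM, 9.14% from 100 to 1000 CPM and 15.8% at 1000 CPM and over (9 of 57). Tyrp1, Dct and Slc24a5 are among these 9. All of this is a description across genes, which share sequence families, and carries no test.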

How the data were processed

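RNA was sequenced from B16-F10 cells, and the 4 libraries labelled MGO.53 were used. The submitters' processing notes list STAR 2.7.10a, HTSeq 2.01 and, without a version, DESeq2. Genome build, annotation and strand setting: not given in the sources used here. The authors' deposited table lists a raw count for 49164 of its 55414 Ensembl identifiers. Beside it stands a deposited normalised signal. Within a library this is the raw count over a constant, and that constant was tried as another scaling.

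CPM used the library total, 19446531 to 33529927 counts, and TPM the longest GENCODE M21 transcript, found for 48309 genes that held 99.9% of the counts. Where identifiers shared a symbol, the one with most counts was kept. Reads of near-identical or overlapping genes cannot be divided from counts alone. For shared sequence, 50-base stretches were sampled along the longest transcript of each listed gene. They were searched for in transcripts of other genes in the same direction only. Spread was estimated with edgeR 4.0.16 in R 4.3.3 (TMM scaling, default filter, intercept only), a step tested on simulated data. Promoters are from RefSeq (GRCm38.p6) and were matched by symbol.

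No test between groups was planned or run. The 42 gene lists (755 different genes in the table) and the groups named were chosen with earlier results of these data known. The text names the 4 lineage markers, the 20 highest genes by CPM and by TPM, members of the lists by role with the highest and those at 0, and the 10 most and 5 least variable genes at 10 CPM or more; some of these genes are not reported here. Alternatives were 3 other scalings, other detection levels, filters and lengths, DESeq2 1.42.0 for the spread, and each library left out in turn.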

Additional observations from a re-analysis of the deposited data

Results flagged for a closer look

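The 251 values looked at were levels of named genes, sums of lists and measures of the libraries. Of these, 8 had 1 library far from the other 3, judged by its gap to the nearest one over the whole range of the 4. Chance flags about 1 in 20 groups, so 8 of 251 is no more than chance would give. Of the 8, 5 set replicate 1 apart and 3 replicate 2. Replicate 1 stood above the others for Brca1 (242, 220.0, 220.3 and 223 CPM), Pkm (3477, 3332, 3331 and 3321 CPM), Yap1 (213, 203, 204 and 202 CPM) and Ldhb (112, 109, 109 and 108 CPM), and below them for Hoxd13 (12.4, 13.9, 13.9 and 14 CPM). Replicate 2, the library with the fewest counts, stood above the others for Eef1a1 (6349, 6538, 6354 and 6336 CPM) and Rplp1 (1736, 1891, 1745 and 1732 CPM). It was also highest for the sum of 18 p53 target genes (2059.9, 2103, 2066 and 2064 CPM). The gaps were small beside the levels, and no cause was tested.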

How the results depend on the processing

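No paired analysis was possible because the results come from no test and concern 1 group, so the replicate numbers pair nothing. With the mitochondrial genes left out, the share of the 10 and 100 most abundant genes was 6.17% and 18.6%, and the pigment enzymes summed to 21311 CPM. The spread depended on the tool: DESeq2 gave 29.0% over 22060 genes with a count against 5.11% from edgeR over the same genes and 4.99% over 12375 filtered genes. The DESeq2 value is the median over genes of the spread fitted by level and the edgeR value 1 common spread. From 100 CPM up, the median CV was 2.94%, against 4.52% from 10 CPM up. By the median transcript length, 13 of the 20 genes of highest TPM stayed. TMM scaling and the authors' size factors moved none of the 253 named genes by more than its SD, and the total without mitochondrial genes moved 51. Leaving out 1 library moved the named genes above 1 CPM by -27.7 to 17.0%. It gave an edgeR spread of 4.81 to 5.17%, an interferon sum of 568 to 605 CPM and an epithelial sum of 19.4 to 23.3 CPM. Depth limits genes at 0 to the 3-count bound, and the deposited counts do not show which gene a shared read came from.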

Other observations

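Genes of invasion and adhesion were mostly expressed, 23 of 26 at a mean of 1 CPM or more. The matrix protein gene Sparc (2103 ± 35.8 CPM) led, followed by the lysosomal proteases Ctsd (1459.7 ± 16.1 CPM) and Ctsb (962 ± 25.5 CPM), the integrin chain Itgb1 (648 ± 8.57 CPM) and the hyaluronan receptor Cd44 (511 ± 15.0 CPM). The membrane protease Mmp14 had 214 ± 6.92 CPM, while the secreted Mmp2 and Mmp9 had 4.54 ± 0.597 CPM and 0.0129 ± 0.0257 CPM. S100a4, often linked with metastasis, had 0.355 ± 0.356 CPM, and 55.6% of its 50-base stretches occur in other genes. Of 28 secreted factors 15 reached a mean of 1 CPM, and the cytokine gene Mif alone (505 ± 37.4 CPM) passed 100 CPM. Vegfa had 25.6 ± 2.7 CPM and Vegfb 80.3 ± 4.60 CPM, Il6 had 2.61 ± 0.896 CPM, and Il1a, Il1b and Igf1 were at 0. The chemokine gene Cxcl10 had 31.9 ± 7.09 CPM. Of the 15, 11 were lowest in replicate 3, against 23.5% of all genes at a mean of 1 CPM or more, and the cause was not tested.

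Well-known non-coding RNAs were detected. Bc1 had 216 ± 44.4 CPM, Malat1 211 ± 13.1 CPM, Gas5 178 ± 8.69 CPM, Neat1 29.6 ± 3.35 CPM and Pvt1, the neighbour of Myc, 10.6 ± 2.18 CPM. These were chosen after their values were seen. In libraries from polyadenylated RNA, a level of RNA without a tail is not comparable with that of messenger RNA.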
